A study of Mus musculus with 13 samples.

Results

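The SR splicing factor genes Srsf1, Srsf2, Srsf3, Srsf4, Srsf5, Srsf6, Srsf7, Srsf9, Srsf10 and Srsf11 were described in bulk RNA of normal mouse ovary and of mouse ovarian tumors. Members were the rows of the deposited expression table with these 10 gene symbols, out of 53465 rows, and all 10 passed the filter on low values that left 17277 genes for testing. The table holds TPM (a read count divided by gene length and given as a share of the library, fixed to the same total in each), so levels can be set side by side between genes.

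The 13 libraries came from 3 WT ovaries and 10 MP tumors, all from C57BL/6 female mice that received no drug. MP stands for MYC with Trp53 loss. The tumors were made by electroporating the ovary of mice aged 8 to 12 wk with plasmids for Cas9 and an sgRNA against Trp53, a MYC transposon and a Sleeping Beauty transposase (EPO-GEMM, an electroporation-based mouse model), and tumor tissue was taken whole at end point. Electroporation does not choose among the cells of the ovary and fallopian tube, so the cell that gave rise to each tumor is not set by the design, and indels in Trp53 need not lower its RNA. The WT ovaries carried none of these alterations. An age of 8 to 12 wk is given in the labels for all 13 libraries. For the tumors it is that of the mice at electroporation and the tissue was taken later, so the groups may differ in age at harvest.

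SR proteins are RNA-binding proteins with RNA recognition motifs at the N terminus and a tail rich in arginine and serine dipeptides. They bind exonic enhancers, recruit U1 and U2 components of the spliceosome to nearby splice sites, and several also act in mRNA export, stability and translation. SRPK and CLK kinases phosphorylate the tail and control where the proteins reside, and many SR genes limit their own output by splicing in a poison exon that sends the mRNA to nonsense-mediated decay. SRSF1 is an oncoprotein in several tissues, and its gene is a known target of MYC.

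Reads worked back from the steps of the TPM values numbered 31445004 to 64013840 in the WT ovaries and 3892690 to 19906507 in the MP tumors, of which the SR genes held 7430 to 78136 per library. A number shared within the library names in the labels, taken here as a batch although the labels do not say what it stands for, put all 3 WT ovaries together with MP tumors 1 to 3 (batch 1), MP tumors 4 to 6 in batch 2 and MP tumors 7 to 10 in batch 3. MP tumor 2 stood apart, with 55.1% of its TPM in 10 genes, against 7.92 to 20.6% in the other libraries. Trp53 lay at 80.7 to 85.4 TPM in the ovaries, at 4.30 to 26.0 in MP tumors 1 to 9 and at 187 in MP tumor 10. Summed markers of granulosa cells (3353 to 6277 TPM in ovaries, 4.54 to 1507 in tumors) and of steroid-making cells (26850 to 31920 TPM in ovaries, 8.93 to 824 in tumors) were lower in each tumor than in any ovary. Epithelial markers summed to 237 to 267 TPM in ovaries and 5.67 to 1152 TPM in tumors, and proliferation markers to 257 to 449 and 326 to 1199 TPM, with 2 of 6 called higher by limma on TPM (2.51% of all genes) and 5 of 6 on scaled values (7.39%). The part of this change in cell makeup in the SR results was not tested, and in whole tissue fewer cells of a type and less RNA per cell cannot be told apart.

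The promoters are shown for Srsf3 and Srsf7, whose RNA moved together across the tumors, and for Srsf1, whose RNA was set against that of Myc. The sequences are RefSeq windows of GRCm38.p6, running 5′ to 3′ on the strand of the gene from base -130 to base -5 before the RefSeq start, and they lie at chr17:29032530-29032655 (plus strand) for Srsf3, chr17:80207310-80207435 (minus strand) for Srsf7 and chr11:88047243-88047368 (plus strand) for Srsf1. Capitals mark matches to CCAAT or TATAAA on either strand.
Srsf3: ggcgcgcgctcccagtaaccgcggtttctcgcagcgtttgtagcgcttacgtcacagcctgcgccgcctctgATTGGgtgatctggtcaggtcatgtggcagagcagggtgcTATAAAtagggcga
Srsf7: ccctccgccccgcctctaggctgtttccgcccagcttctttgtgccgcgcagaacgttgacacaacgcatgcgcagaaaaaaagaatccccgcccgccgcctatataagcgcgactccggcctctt
Srsf1: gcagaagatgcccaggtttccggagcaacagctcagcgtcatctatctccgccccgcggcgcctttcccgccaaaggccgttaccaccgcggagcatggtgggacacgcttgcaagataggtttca

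All 10 SR genes matched the RefSeq promoter table, through 13 annotated starts. In the 250 bases before these starts, the MYC-type E-box CACGTG was found in 0 of 13 windows, against 6.02% of the 32851 mouse promoters of the same length, and the full cAMP response element TGACGTCA in 0 of 13, against 1.55%. CCAAT was found in 3 of 13 windows (Srsf2, Srsf3 and Srsf10), against 33.8% of all promoters. TATAAA, a motif added after the windows had been read, was found in 2 of 13 (Srsf2 and Srsf3), against 12.4%. GC content of the windows ran from 56.8 to 78.0% in SR genes, above the median of 52.4% over all promoters. Each match is a description of letters in the window.

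In normal ovary, the SR genes spanned more than an order of magnitude in level. Srsf7, which also takes part in mRNA export, was highest by the group mean (208 ± 34.6 TPM, SD, n = 3), followed by Srsf6 (164 ± 24.2), Srsf1 (150 ± 21.4), Srsf5 (146 ± 14.6), Srsf9 (134 ± 12.1), Srsf2 (133 ± 26.4) and Srsf3 (114 ± 14.4). Srsf7 was the highest and Srsf3 the lowest of these 7 genes in each ovary, while the ranges of neighbors in this order overlapped. Srsf11 (51.0 ± 6.21 TPM), Srsf10 (37.0 ± 4.60 TPM) and Srsf4 (16.6 ± 1.49 TPM) followed, each without overlap with the gene above it. The lengths that the table used for Srsf3 and Srsf7, 5109 and 2279 bases, are shorter than the 7899 and 3550 bases of merged exons in GENCODE release M21, whereas those of the other 8 genes were equal. The levels of Srsf3 and Srsf7 relative to other genes depend on this choice of gene model, and comparisons of either gene between libraries divide by the same length.

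**Figure D1:**
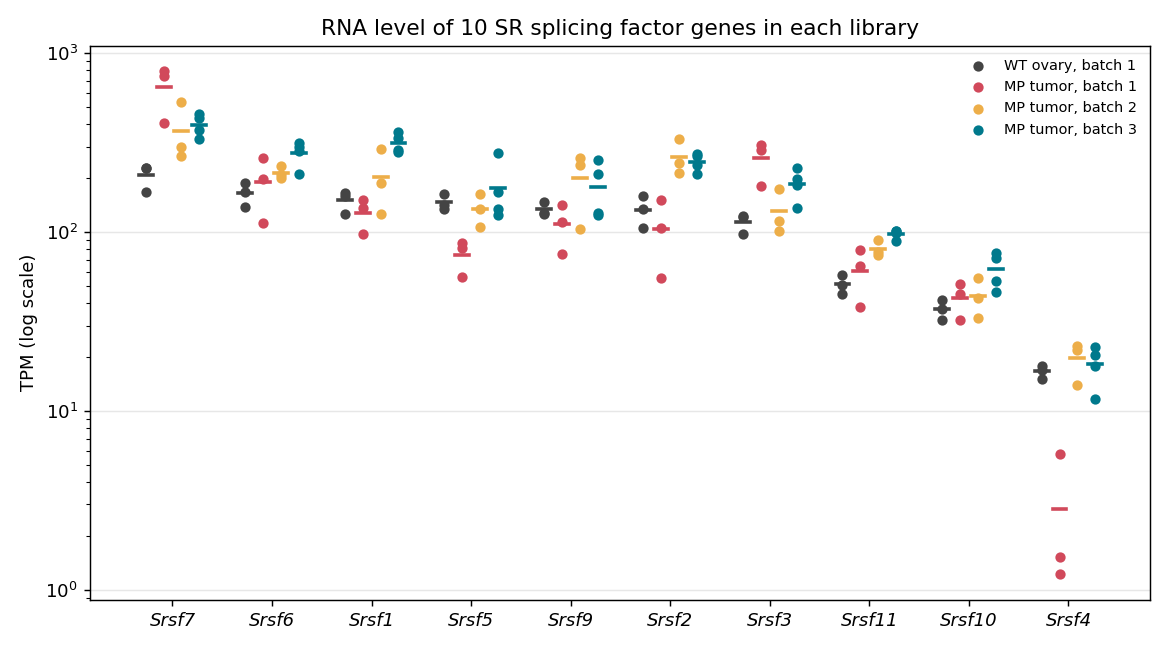
TPM on a log axis (y) for each SR gene (x, ordered by the mean in WT ovaries), with a point per library, a bar at the mean of each set and color for group and batch. Srsf7 lay above the ovaries in all 10 MP tumors, and Srsf4 fell to between 1.22 and 5.74 TPM in the 3 tumors of batch 1.

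Srsf7 rose in MP tumors. Its level was 228, 228 and 168 TPM in the ovaries and 265 TPM at the lowest, 420 at the median and 794 at the highest in the tumors. All 10 tumors lay above all 3 ovaries, a pattern that 3.02% of tested genes showed. The log2 fold change on log2(TPM + 1) values was 1.08 ± 0.34 (SE; limma, Benjamini-Hochberg adjusted p = 0.0406). Srsf7 was the only SR gene past the adjusted threshold of 0.05 in the higher direction, where 2.51% of all genes passed, and 0 SR genes passed in the lower direction, where 14.3% of all genes passed. At an unadjusted p under 0.05 no further SR gene was called. The call was lost when any 1 of the 3 ovaries, or MP tumor 1, 6, 7 or 8, was left out.

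The remaining SR genes did not pass on the TPM scale. Srsf3, the smallest SR protein and a regulator of mRNA export, was at 122, 122 and 97.2 TPM in the ovaries and at 101 to 307 TPM (median 182) in the tumors, 8 of which lay above all ovaries. Its log2 fold change was 0.67 ± 0.34 (limma adjusted p = 0.182). Srsf11, an SR protein that associates with U2AF2, gave 57.3, 50.6 and 44.9 TPM in the ovaries and 37.9 to 102 TPM (median 84.5) in the tumors. Its log2 fold change was 0.63 ± 0.32 (limma adjusted p = 0.181), and 9 tumors lay above all ovaries while MP tumor 2 lay below them. Srsf6 was likewise above all ovaries in 9 tumors, at 187, 167 and 139 TPM in the ovaries and 112 to 315 TPM (median 223) in the tumors. The change was 0.46 ± 0.31 on the log2 scale, not past the threshold.

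Srsf1, which promotes exon inclusion and shuttles between nucleus and cytoplasm, was at 166, 160 and 126 TPM in the ovaries and at 97.5 to 363 TPM (median 235) in the tumors. Its log2 fold change was 0.46 ± 0.40 (limma adjusted p = 0.427), with 6 tumors above all ovaries and 1 below. Srsf2, which stays in the nucleus and marks nuclear speckles, was at 158, 135 and 106 TPM in the ovaries and at 55.4 to 331 TPM (median 226) in the tumors, with a log2 fold change of 0.52 ± 0.45. For both genes the groups overlapped. MP tumor 2 was the lowest tumor for each, and all 3 batch 1 tumors lay below the tumor medians. Srsf10, which represses splicing when dephosphorylated, and Srsf9 gave log2 fold changes of 0.40 and 0.19. Srsf5 and Srsf4 had negative log2 fold changes, -0.26 ± 0.39 and -0.62 ± 0.74, which were not past the threshold.

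These values were read against the shift of the whole library, because TPM is a share. Over all 17277 tested genes the log2 fold changes had a median of -0.58. That of the 10 SR genes was 0.46, which is 1.04 higher. Of the SR genes, 9 lay above the median of all genes, and Srsf4 lay 0.04 below it. Taken tumor by tumor against the mean of the ovaries, the median of the SR genes exceeded that of all tested genes in 10 of 10 tumors, by 0.46 at the lowest (MP tumor 5) and 1.41 at the highest (MP tumor 3), with an SD of 0.34 between tumors.

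When each library was scaled by its median ratio to the geometric mean of all libraries, the median over all genes moved to -0.02 and 4 SR genes passed in the higher direction, where 7.39% of all genes passed. These were Srsf11 (1.33 ± 0.29, limma adjusted p = 0.00609), Srsf2 (1.23 ± 0.29, limma adjusted p = 0.00963), Srsf1 (1.18 ± 0.31, limma adjusted p = 0.0184) and Srsf6 (1.17 ± 0.33, limma adjusted p = 0.0254). Srsf7 had the largest log2 fold change of the family on this scale, 1.79 ± 0.61, but its SE was also the largest and the limma adjusted p was 0.0547. No SR gene passed in the lower direction, where 11% of all genes passed. On the scaled values Srsf1, Srsf2, Srsf3, Srsf6, Srsf7, Srsf10 and Srsf11 were higher in all 10 tumors than in all ovaries, a pattern found in 9.45% of tested genes. Which SR genes were called therefore differed between scales: the fold change of every SR gene other than Srsf4 and Srsf5 was positive on both, Srsf5 moved from -0.26 to 0.46, and Srsf4 from -0.62 to -0.02.

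**Figure D2:**
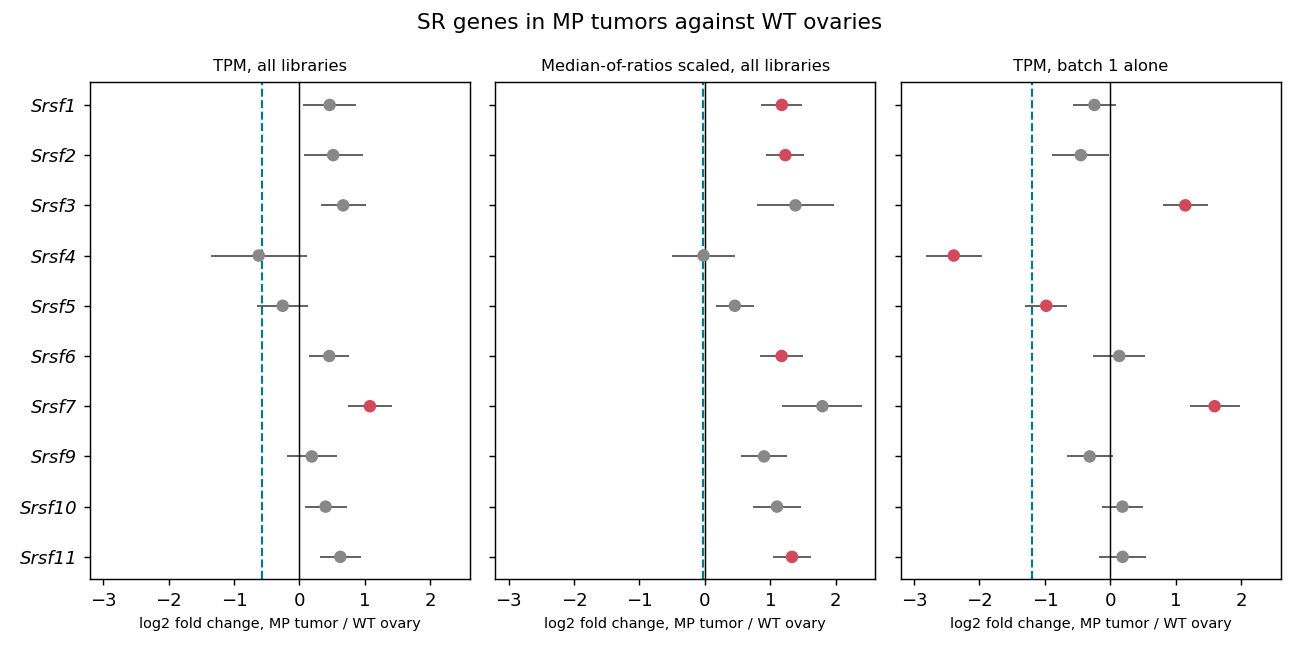
Log2 fold change of MP tumors over WT ovaries (x) for each SR gene (y), with bars for the SE; red points passed a limma adjusted p of 0.05, the solid line is 0 and the dashed line is the median of all tested genes. On TPM only Srsf7 passed, on scaled values Srsf1, Srsf2, Srsf6 and Srsf11 passed, and within batch 1 Srsf3 and Srsf7 passed higher and Srsf4 and Srsf5 lower.

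Because the ovaries were all in batch 1, the comparison was repeated with the 3 tumors of that batch alone, where the median over all genes was -1.20. Srsf7 (1.59 ± 0.38, limma adjusted p = 0.00764) and Srsf3 (1.15 ± 0.35, limma adjusted p = 0.0212) rose, with 6.44% of all genes called higher. Srsf4 (-2.39 ± 0.43, limma adjusted p = 0.00197) and Srsf5 (-0.98 ± 0.32, limma adjusted p = 0.0303) fell, with 57.3% of all genes called lower. On the scaled values in batch 1, 9 SR genes were called higher against 25.8% of all genes, led by Srsf7 (3.16 ± 0.20) and Srsf3 (2.71 ± 0.17). Srsf4 was the exception and was called lower (-1.11 ± 0.38, limma adjusted p = 0.0441), as were 33% of all genes. Srsf5 passed in opposite directions in these libraries, lower on TPM and higher on scaled values (0.58 ± 0.19, limma adjusted p = 0.0341). With the 7 tumors of batches 2 and 3 against the same ovaries, a setting chosen after seeing the data, Srsf2, Srsf7 and Srsf11 were called higher on TPM, as were 4.68% of all genes, and Srsf1, Srsf2, Srsf6, Srsf7 and Srsf11 on scaled values, as were 7.8%. No SR gene was called lower, against 13.5% of all genes on TPM and 10.2% on scaled values. Batches 2 and 3 hold no ovary, so batch and genotype cannot be told apart there.

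Within the tumors, batch 1 was compared with batches 2 and 3, and the median over all genes was -0.84. Srsf2 (-1.38 ± 0.33, limma adjusted p = 0.00755), Srsf4 (-2.53 ± 0.42, limma adjusted p = 0.00101), Srsf1 (-1.005 ± 0.36, limma adjusted p = 0.0491) and Srsf5 (-1.03 ± 0.34, limma adjusted p = 0.0337) were lower in batch 1 tumors, where 30.1% of all genes were called lower. No SR gene was called higher, against 1.29% of all genes, although Srsf3 (0.68) and Srsf7 (0.74) had positive values, and Srsf7 had an unadjusted limma p of 0.0428 and was called higher when MP tumor 2 was left out. After scaling, Srsf3 (2.02 ± 0.32) and Srsf7 (2.08 ± 0.33) were higher in batch 1 tumors (limma adjusted p = 0.00262 for each), together with Srsf6 and Srsf10, and 14% of all genes were called higher. Srsf4 was the 1 SR gene called lower after scaling (-1.50 ± 0.34, limma adjusted p = 0.00854), where 9.71% of all genes were called lower. Srsf2 was at -0.05 there and was not past the threshold. After scaling, 8 SR genes had positive values, among them Srsf1 and Srsf5, which were called lower on TPM. Mean scaled TPM was 273 in batch 1 tumors and 226 in the other tumors for Srsf1, and 160 and 133 for Srsf5. Srsf4 was thus the only SR gene called lower on both of these scales, and with limma-voom on the recovered reads its value was -1.27 ± 0.48 (adjusted p = 0.0658). Summed endothelial markers (6.04 to 17.4 TPM in batch 1 tumors, 21.7 to 189 in the others) and stromal fibroblast markers (32.2 to 52.7 and 61.4 to 3376 TPM) separated the same tumors without overlap. The other summed marker sets overlapped, among them leukocyte markers (30.6 to 72.7 and 49.5 to 218 TPM). These sums are on unscaled TPM, and how many single genes separate these tumors was not counted. The part of cell makeup in these differences was not tested.

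Srsf4 had the lowest level of the 10 genes and the largest fold between its highest and lowest library. It was at 17.89, 17.01 and 14.98 TPM in the ovaries, at 5.74, 1.52 and 1.22 TPM in MP tumors 1, 2 and 3, and at 11.6 to 23.1 TPM in the 7 tumors of batches 2 and 3. The 3 batch 1 tumors were below every other library, and the lowest count behind them was 30 reads in MP tumor 2. In GENCODE M21, 43.0% of the exonic bases of Srsf4 (1532 bases) overlap Gm12992, a noncoding transcript on the opposite strand, and whether the counting used strand is not given in the sources used here. Gm12992 itself was listed at 0.17 to 0.34 TPM in ovaries, 0.02 to 0.46 TPM in batch 1 tumors and 0.14 to 3.14 TPM in the others. Srsf2 has a similar arrangement with Mettl23 (15.6% of its exonic bases), which was at 26.8 to 31.6 TPM in ovaries and 13.1 to 98.4 TPM in tumors.

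The makeup of the family was then described as the share of each gene in the summed SR TPM, a measure that does not move with the scaling of the library. The summed level was 995 to 1269 TPM in the ovaries and 1057 to 2211 TPM in the tumors. Srsf3 and Srsf7 together made up 27.6%, 29.2% and 26.7% of it in the 3 ovaries, 55.6 to 56.7% in the 3 tumors of batch 1 and 25.3 to 35.1% in the 7 tumors of batches 2 and 3. Batch 1 tumors therefore lay apart from both the ovaries of the same batch and the other tumors, and the tumors of batches 2 and 3 overlapped the ovaries. The mean share in tumors minus that in ovaries was 8.63 percentage points for Srsf7, 1.11 for Srsf3 and -2.45 for Srsf9. As shares of recovered reads, which are not divided by gene length, these differences were 5.47, 1.91 and -0.911. The mean share of Srsf5 was 12.8% in ovaries and 7.59% in tumors. Such pooled means mix batches that differ. For Srsf3 the mean was 9.86% in ovaries, 16.1% in batch 1 tumors and 8.77% in the tumors of batches 2 and 3. For Srsf7 these means were 18.0%, 39.9% and 20.9%. The joining of Srsf3 and Srsf7 was chosen after their values had been seen and carries no test.

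Srsf4 made up 1.41 to 1.51% of the sum in ovaries and less than that in 9 of 10 tumors (lowest 0.06%, in MP tumor 3), the exception being MP tumor 5 at 1.53%. The share of Srsf5 was 11.3 to 14.2% in ovaries and was lower in 8 tumors. Srsf10 was lower in 8 tumors as well, at 2.29 to 3.03% against 3.09 to 3.28% in ovaries, and higher in MP tumors 8 and 10 (3.46 and 3.99%). Srsf7 relative to Srsf3, a ratio also chosen after inspection, was 1.73 to 1.87 in the ovaries and 2.00 to 3.04 in the tumors, all 10 of which lay above the ovaries. How many other gene pairs separate the groups in this way was not counted. Srsf7 is the shorter gene in the table (2279 against 5109 bases), and across genes the fold change fell with length (Spearman's rho = -0.297). The part of length in the ratio was not tested. Srsf3 and Srsf7 both lie on chromosome 17, whose 794 tested genes had a median log2 fold change of -0.56 between tumors and ovaries (-0.58 over all genes) and of -0.98 between batch 1 tumors and the other tumors (-0.84 over all genes).

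**Figure D3:**
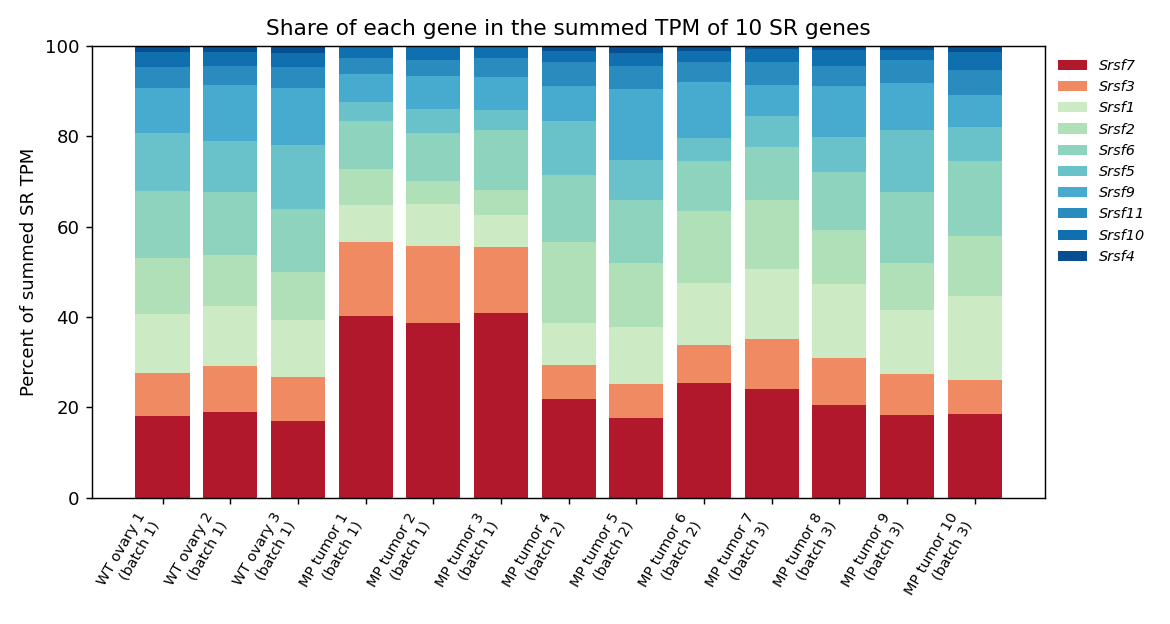
Percent of the summed SR TPM (y) held by each SR gene in every library (x, with its batch). Srsf7 and Srsf3 (red and orange) held 55.6 to 56.7% in MP tumors 1 to 3 and 25.3 to 35.1% in all others, ovaries included.

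Across the 10 tumors, most SR genes varied together once the libraries had been scaled. Pearson's r of a gene with the mean of the other members was 0.92 for Srsf3 and Srsf11, 0.91 for Srsf7, 0.90 for Srsf10, 0.86 for Srsf6, 0.68 for Srsf1 and 0.65 for Srsf9. It was 0.29 for Srsf2, 0.32 for Srsf5 and -0.79 for Srsf4. The closest pair on scaled values was Srsf3 and Srsf7 (r = 0.98, and 0.92 on TPM), and on TPM it was Srsf6 and Srsf11 (r = 0.95, and 0.97 on scaled values). Srsf4 and Srsf6 gave -0.89 on scaled values and 0.55 on TPM. These correlations share libraries and their scaling, and the 3 batch 1 tumors lie at 1 end, so they are given as descriptions without a test.

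On scaled values, 9447 genes with a mean level of at least 10 TPM were ranked by likeness to the mean of the SR genes over the 10 tumors. Highest were Timm9 (r = 0.99), an import chaperone of the mitochondrial intermembrane space, and Wdr4 (0.98), a subunit of a tRNA methyltransferase. Next came Nifk (0.98), a nucleolar protein that binds Ki-67, and Psmg4 and Psmg3 (0.98 each), assembly chaperones of the proteasome. The limits given for the correlations among SR genes hold here as well.

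Srsf1 was set against Myc RNA, since MYC is the oncogene of the model. The Myc row counts reads assigned to the mouse gene, and how reads of the transposon were assigned was not tested. Myc was at 125.5 to 129.4 TPM in the ovaries and at 7.09 to 419 TPM (median 90.5) in the tumors, lowest in the 3 of batch 1. On log2(TPM + 1) values over the 10 tumors, Pearson's r was 0.94 (permutation test, 2-sided, p = 0.00014) and Spearman's rho was 0.915 (permutation p = 0.00046). This was the only relation tested, so no adjustment was made. On this scale Myc correlated positively with most genes, with a median r of 0.471 over the other tested genes, and an r at least as high as that of Srsf1 was found in 0.593% of them. Among SR genes Srsf2 (0.88), Srsf4 (0.85) and Srsf11 (0.83) were close to Srsf1, and Srsf3 (-0.26) and Srsf7 (-0.33) were negative. Without MP tumors 2 and 3, which were farthest from the median of Myc, r was 0.897 (permutation p = 0.00337). After subtraction of batch means r was 0.832 (permutation p = 0.00263). That permutation moved values across batches and took no account of the means subtracted, so its p is likely too small. Batches of 3, 3 and 4 tumors were too small for an r of their own.

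On scaled values the pooled relation over 10 tumors was lost, with r = 0.261 (permutation p = 0.456), and 29.6% of the other genes had an r at least as high. There the batch 1 tumors had the lowest Myc (the plot of Srsf1 against Myc), with Srsf1 at 239, 306 and 273 scaled TPM against a tumor median of 250.8. In the 7 tumors of batches 2 and 3, a subset taken after seeing the data, r was 0.885 on TPM (permutation p = 0.00414) and 0.920 on scaled values (permutation p = 0.00452). In these 7 tumors an r with Myc at least as high was found in 1.52% of the other genes on TPM and in 0.746% on scaled values. Srsf10 was close to Srsf1 in these 7 tumors, with r = 0.92 on TPM and 0.91 on scaled values, while Srsf9 (0.07 and 0.05) and Srsf5 (-0.34 and -0.35) were not.

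**Figure D4:**
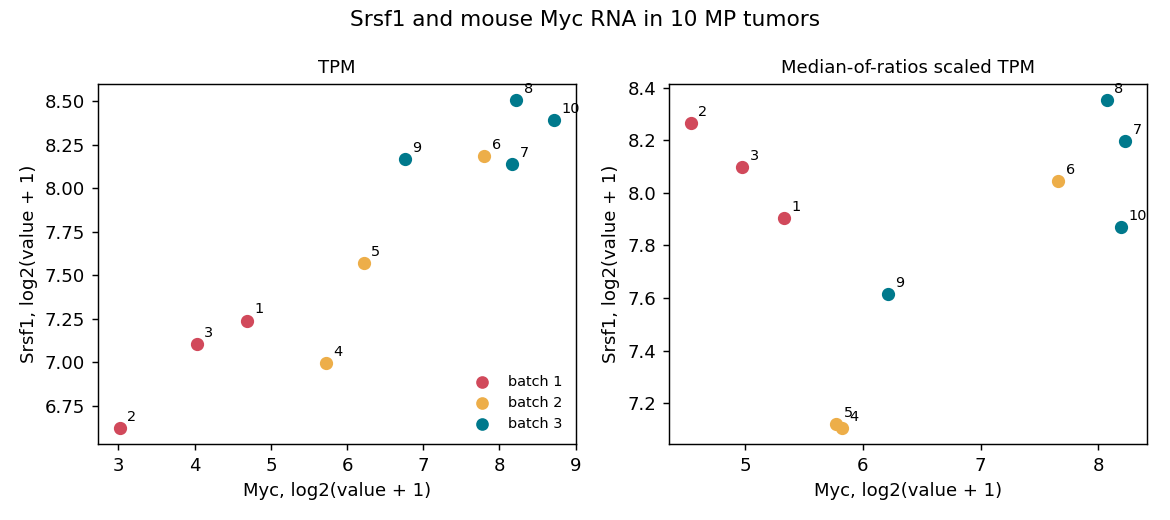
Srsf1 against Myc in each of the 10 MP tumors, both as log2(value + 1), on TPM (left) and on median-of-ratios scaled TPM (right), with the tumor number beside each point and color for batch. On TPM the points lie near 1 line (r = 0.94), and after scaling the 3 batch 1 tumors sit apart at low Myc and r over 10 tumors was 0.261.

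The rest of the splicing pathway was described by gene lists, with the median log2 fold change of each list beside the -0.58 of all tested genes. Counts of called genes stand against 2.51% of all genes called higher and 14.3% lower on TPM, and 7.39% and 11% on scaled values. The Sm and snRNP proteins, which form the core of the spliceosomal particles, had the highest median (0.92 over 12 genes), and 4 of 12 rose and 0 fell. Snrpd2, an Sm ring subunit, was at 68.1 ± 4.71 TPM in the 3 ovaries and 181 ± 70.3 TPM in the 10 tumors (mean ± SD), a log2 difference of 1.30 (limma adjusted p = 0.0228). Snrpa1, the U2 A' protein, was at 32.3 ± 0.63 and 102 ± 52.3 TPM, a log2 difference of 1.48 (limma adjusted p = 0.0245). The other two called were Snrpc and Snrpd1. On scaled values 5 of 12 rose, among them Snrpd2, Snrpa1 and Snrpc, while Snrpd1 had a limma adjusted p of 0.0571. On TPM the lowest value was that of Snrpn (-0.60, limma adjusted p = 0.469). Among 21 U2 and tri-snRNP proteins the median was 0.04, and Txnl4a, a U5 component, rose (1.14, limma adjusted p = 0.0392), as the only one on TPM and as 1 of 6 on scaled values. Prpf6, a bridging factor of the tri-snRNP, had the lowest statistic of that list (-1.02, limma adjusted p = 0.277).

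The kinases, the phosphatase and the importin that act on SR proteins had a median of -0.16 over 10 tested genes, and 0 passed in either direction. The largest statistics were those of Ppp1ca, a catalytic subunit of protein phosphatase 1 (0.64, limma adjusted p = 0.217), and Dyrk1a (-0.61, limma adjusted p = 0.403). On scaled values the SR protein kinase Srpk1 passed (1.24, limma adjusted p = 0.0106). Of 22 SR-related proteins, 0 passed on TPM (median -0.23). The splicing activator Tra2b (0.51, limma adjusted p = 0.258) and Rsrc2 (-0.65, limma adjusted p = 0.224) had the largest statistics, and on scaled values 4 passed as higher (Pnn, Luc7l, Luc7l3 and U2af2).

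The hnRNP family, which often opposes SR proteins at exons, had a median of -0.17 over 26 genes, with 0 higher and 1 lower on TPM, and 3 higher and 1 lower on scaled values. The lower one on both scales was Ptbp3, a repressor of exon inclusion, which was at 119 ± 34.0 TPM in ovaries and 34.1 ± 34.1 TPM in tumors (log2 fold change -2.23, limma adjusted p = 0.0369), and the largest positive statistic was that of Hnrnpc (0.48, limma adjusted p = 0.233). Nonsense-mediated decay factors, which degrade the poison-exon forms of SR mRNAs, had a median of -0.54 over 10 genes, with 0 called on either scale, and Smg6 had the most negative statistic (-1.69, limma adjusted p = 0.170). Among 14 tested tissue-restricted regulators 0 rose and 2 fell, a share equal to the 14.3% of all genes called lower. These were the epithelial regulators Esrp1, at 4.46 ± 1.33 TPM in ovaries and 0.08 ± 0.13 TPM in tumors (limma adjusted p = 2.78e-06), and Esrp2, at 12.6 ± 2.05 and 3.71 ± 4.31 TPM (limma adjusted p = 0.0475). On scaled values only Esrp1 fell, and Esrp2 had a limma adjusted p of 0.0846. The pseudocount of 1 understates the change of genes this low. Epithelial markers had 3 of 6 genes lower in tumors, and their part in the Esrp1 and Esrp2 values was not tested.

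**Figure D5:**
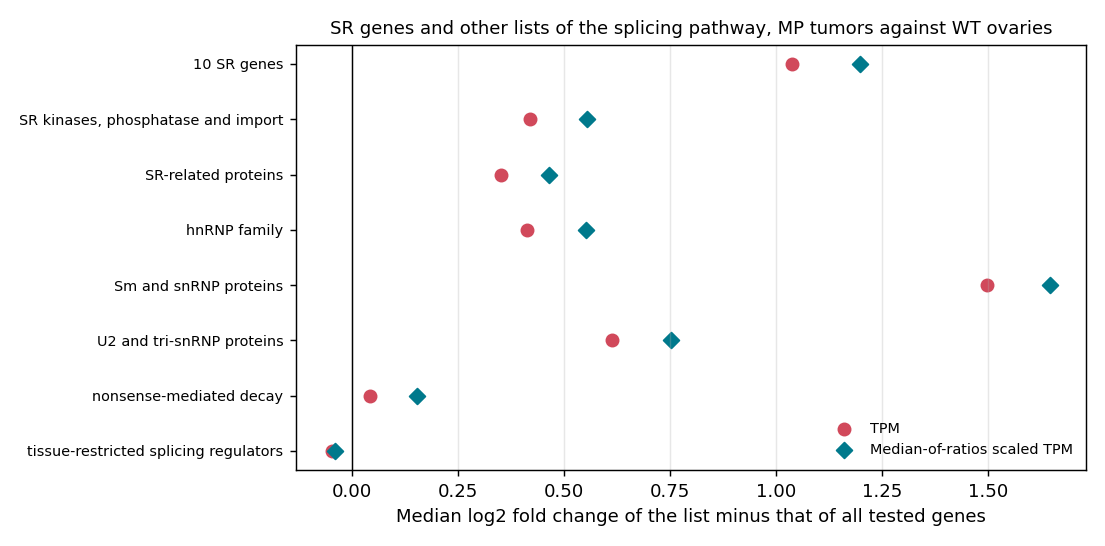
Median log2 fold change, MP tumors over WT ovaries, of the SR genes and of each other list of the splicing pathway (y) minus the median of all tested genes (x), on TPM (circles) and on scaled TPM (diamonds). The SR genes lay 1.04 above all genes on TPM, below the Sm and snRNP proteins at 1.50 and above the remaining lists.

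GENCODE M21 annotates a transcript subject to nonsense-mediated decay for 9 of the 10 SR genes (15 of 85 transcripts) and a retained-intron transcript for 8 of 10 (26 of 85), against 29 coding transcripts. The gene-level TPM sums these forms, so a level given above is that of all transcripts of the gene and not that of the coding form. Reads of 76 bases could not be assigned to 1 gene for part of some members. Counted without strand, the share of possible reads that occur in other genes was 37.7% for Srsf4 and 18.4% for Srsf2, mostly in the overlapping Gm12992 and Mettl23. It was 8.42% for Srsf10, 7.57% for Srsf3 and 7.24% for Srsf5, mostly in Gm5446, Gm12355 and Gm12966, which were listed at 0 to 4.84 TPM, 0.433% for Srsf1 and 0 for the other members.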

How the data were processed

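Poly(A) RNA of 3 WT ovaries and 10 MP tumors was sequenced as 76 bp single-end reads. The authors deposited 1 table of TPM with identifier, position and length per gene, and 0 columns of other samples. The submitters' processing notes name FastQC 0.11.5, Trimmomatic 0.36, STAR 2.5.3a and featureCounts 1.6.3 with mm10/GRCm38, whereas the labels' protocol names a human build and RPKM, so unit and build were taken from the table. Reads were recovered from the steps of TPM times length (100% whole within 0.01 in each library). Genes that reached a TPM of 1 in 3 or more libraries were tested as log2(TPM + 1) with limma 3.58.1 (trended, robust) in R 4.3.3, without covariate. P values were adjusted by Benjamini-Hochberg over all 17277 genes (threshold 0.05), and correlations were tested with 100000 permutations. Separate animals are not stated for every library, so P values measure the spread between these libraries. Pairs of libraries differed beyond sampling noise (chi-square per degree of freedom of at least 28.4), so none was counted as a repeat.

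The members, lists and tests were chosen with earlier results of these data known. All members are named, with, per list, up to 2 genes past the threshold with the largest statistic in each direction, or the 1 largest where none passed, and the 5 genes most like the SR mean. Snrpc, Snrpd1, Srpk1, Pnn, Luc7l, Luc7l3 and U2af2 were named after their values were seen. Replicate numbers 1 to 3 are shared by ovaries and tumors, and deviations of same-numbered libraries correlated at -0.049, 0.019 and -0.037, which gave no sign of pairing. Tumor deviations were taken from the mean of all MP tumors, so MP tumors 1 to 3 share a batch offset. The check is therefore weak and cannot exclude a pairing. The limma fit was also run on simulated data, without batches and with the same gene proportions in all libraries apart from the changed genes. Of 200 genes changed 4-fold among 17277, 198 were recovered with the right sign, and 10 unchanged genes were called. These settings are simpler than the data, so the run does not measure the power for the SR genes. Alternatives varied pseudocount, filter, scaling, length trend, limma options, batch and single libraries.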

Additional observations from a re-analysis of the deposited data

Results flagged for a closer look

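Srsf5 reached 277.79 TPM in MP tumor 9, against 56.0 to 168 TPM in the other 9 tumors, a gap to the nearest tumor that exceeded the 95% critical value of Dixon's test for 10 samples. This was 1 of 21 series of values examined, of which chance alone would single out about 1.05. On scaled values MP tumor 9 stood at 189 and the highest of the others at 176, so the distance was smaller there.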

How the results depend on the processing

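The number of SR genes called higher in MP tumors was 1 on TPM, where 2.51% of all genes were called higher. It was 4 with median-of-ratios scaling (7.39% of all genes), also without MP tumor 2 (6.81%), and 4 with quantile normalization (11%). It was 6 with the length trend removed (11.5%), 7 with limma-voom on recovered reads (18.3%) and 0 without trend and robust settings (2.58%). In batch 1 alone it was 2 (6.44%), or 9 after scaling (25.8%), and with batch as a covariate it was 2 (5.17%). With the tumors of batches 2 and 3 alone it was 3 on TPM (4.68%) and 5 on scaled values (7.8%). Leaving out 1 library gave 0 to 2, while the share of all genes called higher ran from 0.544% (without WT ovary 3) to 3.68% (without MP tumor 2). The number called lower was 0 (14.3% of all genes on TPM), but 2 in batch 1 alone (57.3%) or with the batch covariate, and 1 in batch 1 alone after scaling (33%). With the replicate block, which uses only the 6 libraries that share a number, 1 SR gene was called higher (Srsf7; 6.29% of all genes) and 1 lower (Srsf4; 56.7% of all genes). With the batch covariate these shares were 5.17% and 49.4%. The SR median exceeded that of all genes by 1.04, moving to 0.531 without a filter, 0.66 with quantile normalization and 1.66 in batch 1 after scaling, and kept its sign in all settings run. The 4 SR genes called between tumor batches became 2 to 4 when 1 tumor was left out (2 without MP tumor 1, 3, 8 or 9), with 0.266 to 1.99% of all genes called higher and 16.4 to 32.2% lower. Without MP tumor 2 the calls were Srsf7 higher and Srsf2 and Srsf4 lower. With all tumors the 4 were lower, whereas calls were 4 higher and 1 lower with scaling (14% and 9.71% of all genes), 2 and 2 with quantile normalization (9.56% and 8.1%), 5 and 1 with the length trend removed (12.2% and 6.89%), 6 and 0 with voom (22% and 6.07%), and 2 and 3 without mitochondrial genes and CT010467.1 (2.54% and 28.2%). After scaling, r of Srsf1 with Myc was 0.261.

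Between tumors and ovaries the sign of single genes turned as follows, and the cause was not tested. In batch 1 alone, with the batch covariate and with the replicate block, the log2 fold change was -0.24 for Srsf1, -0.45 for Srsf2 and -0.32 for Srsf9. That of Srsf4 became 0.25 with quantile normalization, 0.14 with the length trend removed, 0.29 with voom, 0.10 after scaling without MP tumor 2, and 0.14 (TPM) and 0.43 (scaled) with batches 2 and 3 alone. That of Srsf5 became 0.46 with scaling, 0.55 with the length trend removed, 0.79 with voom, 0.58 in batch 1 after scaling, 0.43 after scaling without MP tumor 2, and 0.0528 (TPM) and 0.36 (scaled) with batches 2 and 3 alone. Over the fold changes of all SR genes in the other settings, 214 values kept sign and side of the threshold, 44 kept sign and passed it newly, 10 (all Srsf7) no longer passed and 22 turned sign, of which 1 (Srsf5 in batch 1 after scaling) was past the threshold. Srsf4 rested on as few as 30 reads in a library, and no value was recomputed at reduced depth. Gene length moved with the fold change across genes (Spearman's rho = -0.297, and -0.455 between batch 1 and the other tumors).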
